A study of Mus musculus with 20 samples.

Results

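A set of 43 mouse genes of DNA damage sensing and repair was followed in skin and skeletal muscle of the hindlimb 70 days after irradiation. The genes were listed by name, for their known roles, out of 35579 genes in the data. A gene was described in a tissue when it had at least 1 CPM, a count scaled to a common library total, in at least 3 of the 10 libraries. All 43 met this in skin and 37 did in muscle, where Brca1, Chek1, Fancd2, Lig1, Palb2 and Rad51b did not. By role, 12 genes encode sensors and signalling proteins of DNA breaks, 13 act in homologous recombination, 6 in non-homologous end joining, 7 in base excision and single-strand break repair, 3 in nucleotide excision repair and 2 in the Fanconi anaemia pathway.

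The mice were wild-type C57BL/6J animals. An ElectronFlash accelerator gave 35 Gy of electrons, in its FLASH mode of very high dose rate to the FLASH mice and in its conventional mode to the CONV mice, and sham mice were not irradiated. Skin and muscle came from the left hindlimb at day 70, with 3 sham, 4 FLASH and 3 CONV libraries per tissue, made from total RNA depleted of ribosomal RNA. Skin was labelled batch 1 and muscle batch 2, so differences of tissue and of batch cannot be told apart. Replicates are numbered without a statement that each is its own animal, and the p-values describe the spread among these libraries, some of which may be technical.

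DNA double-strand breaks are bound by the Mre11a, Rad50 and Nbn complex and by the Ku proteins Xrcc5 and Xrcc6. These recruit the kinases Atm and Prkdc, while Atr responds to single-stranded DNA, and the kinases mark the histone variant encoded by H2afx and set off checkpoint signalling. Dividing cells can copy the lost sequence from a sister chromatid by homologous recombination, whereas resting cells, including muscle fibres, depend mainly on end joining. Many of these proteins are controlled after translation, and messenger RNA levels give no measure of repair activity.

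Skin libraries held 24396463 to 33250762 estimated counts and muscle libraries 10198699 to 12336479. In muscle 60.01% to 65.1% of the counts came from the top 10 genes, and in skin 4.25% to 12.9%. In 7 libraries (2 skin and 5 muscle), all labelled sham or FLASH, the deposited file carried the library name of another sham or FLASH record, while CONV was unaffected. The 3 CONV libraries of a tissue were therefore first compared with its other 7, a comparison that does not depend on that assignment. Fast skeletal muscle genes (12 genes) summed to 63836 to 106291 CPM in muscle and to 74.4 to 31708 CPM in skin, where sham 1 and FLASH 2 stood apart at 31708 and 31494 CPM. Hair shaft and matrix genes (19 genes) summed to 59.8 to 13563 CPM in skin and to 1.15 to 109 CPM in muscle. In bulk tissue, fewer cells of a type and less RNA per cell cannot be told apart.

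Several recombination and replication genes are known targets of E2F factors, which drive genes of the cell cycle, and skin libraries differed in cell cycle genes. The 250 bases before each start in the RefSeq promoter table (GRCm38.p6) were therefore searched on both strands for 4 forms of the 8-letter E2F motif, TTTCCCGC, TTTGGCGC, TTTCGCGC and TTTGCCGC, which differ in the fourth and the fifth letter only. Of 33 members matched in the table, 5 held one (15.2%), against 583 of all 27025 genes (2.16%). The 27025 genes were not limited to those expressed in these tissues, whereas every member was described in skin. The shares are therefore of unlike sets. The 5 were Chek2, Mdc1, Brca2, Bard1 and Xrcc6, each with TTTCCCGC or its reverse complement, and 4 are shown here with the motif in capitals, read in the direction of the gene. A match describes letters and not a binding site. The stretch of Chek2 is chr5:110839805-110839864 (plus strand), that of Mdc1 chr17:35841456-35841497 (plus strand), that of Brca2 chr5:150522427-150522486 (plus strand) and that of Bard1 chr1:71103148-71103207 (minus strand).
Chek2: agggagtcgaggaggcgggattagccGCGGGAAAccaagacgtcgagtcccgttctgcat
Mdc1: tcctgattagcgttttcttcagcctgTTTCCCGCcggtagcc
Brca2: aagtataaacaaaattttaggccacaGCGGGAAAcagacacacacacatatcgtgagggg
Bard1: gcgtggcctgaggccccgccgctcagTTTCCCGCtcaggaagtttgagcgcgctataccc

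The upstream sequence of Rad51b is shown because it was the one member whose level passed the test within a tissue. These are the 250 bases before its start, chr12:79297032-79297281 (plus strand, GRCm38.p6), and none of the 4 motif forms occurs in them.
Rad51b: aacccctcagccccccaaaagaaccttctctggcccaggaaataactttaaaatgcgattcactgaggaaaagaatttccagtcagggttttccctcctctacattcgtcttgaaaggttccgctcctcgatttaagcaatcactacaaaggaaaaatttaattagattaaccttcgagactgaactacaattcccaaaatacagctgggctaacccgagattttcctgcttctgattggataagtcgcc

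Levels between genes were compared as TPM, which corrects for transcript length. In skin, Trp53bp1, which encodes a chromatin reader that limits resection of broken ends, had the highest mean level at 84.8 ± 22.4 TPM (SD, n = 10). Its values were 80.5, 121 and 111 TPM in sham, 102, 95.2, 87.8 and 65.2 TPM in FLASH and 70.99, 57.1 and 57.8 TPM in CONV. Parp2, which encodes a poly(ADP-ribose) polymerase activated by strand breaks, followed at 74.1 ± 14.8 TPM, with 68.9, 91.8 and 83.7 TPM in sham, 99.1, 70.5, 77.3 and 77.03 TPM in FLASH and 61.02, 51.7 and 60.1 TPM in CONV. The 2 overlapped across libraries, and both were lowest in a CONV library. At the low end, Nhej1, a scaffold of end joining, had 2.30, 4.64 and 4.65 TPM in sham, 2.77, 2.96, 5.02 and 4.36 TPM in FLASH and 3.92, 4.21 and 3.92 TPM in CONV. Rad51c, a gene of homologous recombination, had 2.71, 4.57 and 4.41 TPM in sham, 4.17, 3.27, 4.24 and 3.47 TPM in FLASH and 3.30, 2.77 and 3.59 TPM in CONV. Their ranges overlapped, and neither had a group that stood apart from the others.

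The order depended on which transcripts were counted. Transcripts not annotated as protein-coding held a large part of the TPM of some members. Protein-coding transcripts made up a median of 8.57% of the skin TPM of Rad52 and 12.2% of that of Parp2. Over protein-coding transcripts alone, the highest in skin were Apex1, an endonuclease at abasic sites (40.8 TPM), H2afx (36.2 TPM) and Lig3, the ligase of single-strand break repair (31.3 TPM), and the lowest was Palb2 (1.83 TPM), which links Brca1 to Brca2. Apex1 shares 61.7% of its exon bases with Pip4p1 on the opposite strand, Lig3 25.1% with Rffl, Ddb2 23.8% with Acp2 and Trp53bp1 15.0% with Tubgcp4. The kit keeps the strand, but whether the counting used it is not given in the sources used here, so levels of these genes are uncertain to that extent.

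In muscle, Parp1, the main poly(ADP-ribose) polymerase of the break response, was highest at 13.9 ± 2.65 TPM (SD, n = 10), with 19.4, 10.7 and 11.2 TPM in sham, 11.8, 13.2, 15.4 and 13.5 TPM in FLASH and 15.4, 15.8 and 12.5 TPM in CONV. Trp53bp1 followed, with 8.57, 6.66 and 8.50 TPM in sham, 9.26, 9.47, 7.01 and 8.30 TPM in FLASH and 9.74, 7.82 and 8.77 TPM in CONV. Every Parp1 value lay above every Trp53bp1 value. The lowest of the 37 described genes were Rad51c, with 0.323, 0.279 and 0.215 TPM in sham, 0.290, 0.0711, 0.237 and 0.241 TPM in FLASH and 0.442, 0.453 and 0.467 TPM in CONV, and Bard1, the partner of Brca1, with 0.342, 0.229 and 0.293 TPM in sham, 0.453, 0.503, 0.524 and 0.556 TPM in FLASH and 0.694, 0.406 and 0.532 TPM in CONV. Over protein-coding transcripts alone, Parp1 was still highest (11.5 TPM), followed by Apex1 (7.77 TPM), with Trp53bp1 at 2.89 TPM, and the lowest described genes were Rad54l (0.0855 TPM) and Brca2 (0.166 TPM). For Rad51c the values over all transcripts rested on 2 to 14 estimated counts per library.

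Among the skin libraries the members differed in how steady they were. The ratio of the highest to the lowest library was 1.18 to 13.3, with a median of 1.77, and it was under 1.5 for 15 members and at least 2 for another 15. H2afx was the most variable, with 4.05, 20 and 25.4 CPM in sham, 5.08, 8.36, 41.3 and 29.1 CPM in FLASH and 26.4, 53.9 and 26.3 CPM in CONV (TMM-scaled CPM). Sham 1, FLASH 1 and FLASH 2 were lowest and CONV 2 and FLASH 3 highest, so the groups overlapped widely. The same 3 libraries were the lowest in 22 proliferation genes, at 420.8 to 555.7 summed CPM against 846.3 to 1465 in the other 7.

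Of the 43 members, 9 were lower in each of those 3 libraries than in any other skin library (background 10.3% of all genes tested), namely Chek1, H2afx, Brca1, Blm, Nhej1, Apex1, Lig1, Fancd2 and Fanca. Another 4, Nbn, Wrn, Xrcc4 and Ddb2, were higher there than in any other (background 8.03%). Of the 9, 7 were matched in the promoter table and none held the E2F motif in this window. The members include replication and recombination genes such as Lig1, the replicative ligase, and Blm, a helicase that dissolves recombination intermediates. Brca1 had 4.73, 20.1 and 17.8 CPM in sham, 7.62, 9.45, 26.8 and 19.9 CPM in FLASH and 23.8, 16.5 and 13.5 CPM in CONV, and Lig1 had 9.50, 21.6 and 23.2 CPM in sham, 13.4, 13.5, 30.1 and 25.6 CPM in FLASH and 24.2, 39.3 and 21.6 CPM in CONV. The 3 samples came from sham and FLASH, and sham 1 and FLASH 2 were also the 2 skin libraries rich in muscle genes. All 3 were lowest in hair shaft and matrix genes (59.8 to 515 summed CPM, against 768 to 13563 in the others) and highest in the 10 adipocyte genes (1312 to 2486 summed CPM, against 227 to 766). These samples were set apart by their own values, so no test was made, and the part of tissue makeup was not tested. Among 114 other repair genes, 21 were lower and 11 higher in each of the 3 than in any other.

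**Figure D1:**
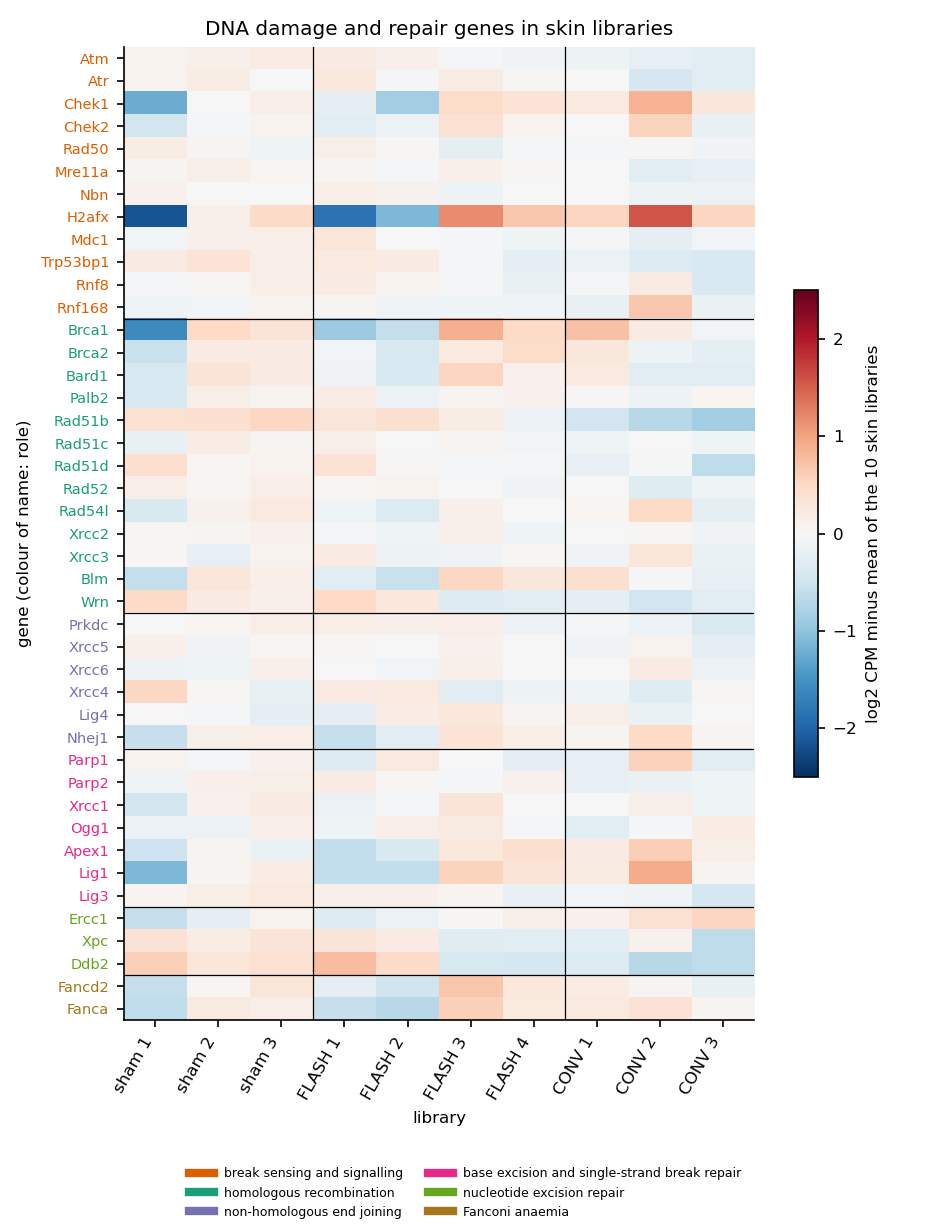
Log2 CPM of each of the 43 members in the 10 skin libraries, as the difference from the member's mean, with names coloured by role and lines between groups. Members such as H2afx, Brca1 and Lig1 were low in sham 1, FLASH 1 and FLASH 2, while Ddb2 and Wrn were high there.

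**Figure D2:**
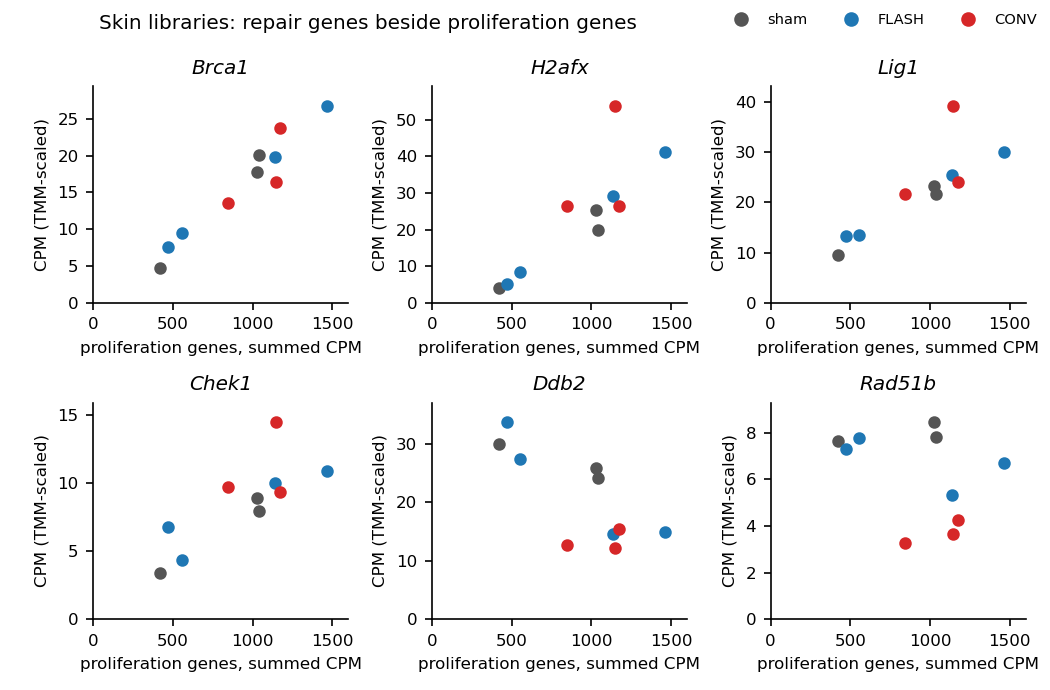
CPM of 6 members (vertical axis) against the summed CPM of 22 proliferation genes (horizontal axis) in the 10 skin libraries, coloured by group. Brca1, H2afx, Lig1 and Chek1 were lowest in the 3 libraries at 420.8 to 555.7 summed CPM, where Ddb2 was highest, and Rad51b was lowest in the CONV libraries.

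Skin at day 70 after conventional-rate irradiation was compared with sham and FLASH skin together. The 4 FLASH libraries also had 35 Gy, so this comparison mixes dose and dose rate, and CONV against sham alone is given below. Of 43 members tested, 1 fell and none rose, the one being Rad51b, a gene of homologous recombination. In all 20026 genes tested, 0.0699% were called lower and 1.58% higher, 1.65% in either direction. Rad51b (ENSMUSG00000059060, chromosome 12, 79297282 to 79814690, plus strand) had 7.66, 7.80 and 8.46 CPM in sham, 7.29, 7.80, 6.71 and 5.31 CPM in FLASH and 4.24, 3.65 and 3.25 CPM in CONV. All 3 CONV values lay below all 7 others, and FLASH 4 was the lowest of the 7. The mean was 3.71 ± 0.497 CPM in CONV (SD, n = 3) and 7.29 ± 1.02 CPM in the others (SD, n = 7), a log2 change of -0.97 ± 0.18 (SE) with an adjusted p of 0.0387 by edgeR's quasi-likelihood test.

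This call was close to the threshold. The CONV libraries held 77 to 111 estimated counts of Rad51b and the others 175 to 282. Rad51b lay lower in CONV under all 18 alternatives (log2 change -1.08 to -0.90), but it passed the threshold in 7 of them, with adjusted p from 4.03e-05 to 0.231. It was not called when sham 1, sham 2, sham 3, FLASH 1, FLASH 2, FLASH 3, CONV 2 or CONV 3 was left out (adjusted p 0.0682 to 0.223 by edgeR). Without any one of those sham or FLASH libraries, 0 of all genes were called, so the loss was not particular to Rad51b. Over protein-coding transcripts alone the log2 change was -1.02 with an adjusted p of 0.0402 by edgeR. A processed transcript without coding sequence held 41.6% of the skin TPM of Rad51b, and its 2 main coding transcripts held 30.9% and 24.6%.

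Markers of some other cell types moved with CONV. All 9 neutrophil genes tested were higher in CONV and 6 were called, and the 10 of the list summed to 235 to 899 CPM in CONV against 26.8 to 120.5 CPM in the other 7. Of 10 fibroblast genes, 9 were higher and 5 called, with 15707 to 46069 CPM against 8526 to 12776 CPM. Macrophage genes (3 of 10 called; 358 to 960 CPM against 157 to 471 CPM) and endothelial genes (1 of 10 called; 374 to 963 CPM against 146 to 434 CPM) overlapped between the groups. The 7 injury-induced keratinocyte genes were at 6134 to 22640 CPM in CONV and at 185 to 7880 CPM in the others, where FLASH 4 was the highest. Other lists did not stand apart. In CONV, hair shaft and matrix (768 to 11860.5 CPM), adipocyte (230 to 742 CPM) and fast skeletal muscle genes (496 to 4117 CPM) lay within the range of the other 7. Basal keratinocyte genes overlapped, at 8194 to 29692 CPM in CONV against 6673 to 11035 CPM. None of these lists had a gene at 0 in all skin libraries. Their part in the level of Rad51b and the other members was not tested.

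Across all 43 members, 15 were higher in CONV (34.9%, background 50.4%) and 28 lower, with a median log2 change of -0.05 beside 0.00471 over all genes. Over the alternatives, from 10 to 19 were higher and from 24 to 33 lower, with 10 and 33 when the 2 skin libraries rich in muscle genes were left out and 19 and 24 without CONV 3. At an unadjusted p under 0.05, 9 were lower (20.9%, background 9.35%) and 1 higher (2.33%, background 14.1%). DESeq2 called 4 members lower, Atm, Trp53bp1, Rad51b and Ddb2, and 0 higher. In either direction this was 9.30% of members, near the 9.25% it called of all genes. The share of all genes that DESeq2 called lower was not counted. The CONV values lay below all 7 others for 3 members, Atm, Rad51b and Parp2 (6.98%, background 2.62%), and above all 7 for none (background 3.85%).

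Among sensors and signalling genes, 4 of 12 were higher and 8 lower in CONV, and none passed the test. Trp53bp1 had 117, 129 and 115 CPM in sham, 121, 118, 98.03 and 85.6 CPM in FLASH and 91.6, 81.7 and 78.4 CPM in CONV. FLASH 3 and FLASH 4 lay nearest to the CONV values, with FLASH 4 inside their range, and the log2 change was -0.42 ± 0.14 (SE) with an adjusted p of 0.122 by edgeR. Atm, the kinase activated by double-strand breaks, had 81.1, 83.2 and 86.98 CPM in sham, 88.1, 83.5, 74.9 and 71.9 CPM in FLASH and 69.9, 65.8 and 62.4 CPM in CONV. Its groups did not overlap, with FLASH 4 at 71.9 CPM just above CONV 1 at 69.9 CPM, and its log2 change was -0.30 ± 0.10 (SE, adjusted p = 0.123 by edgeR). Atr had 84.6, 90.7 and 79.8 CPM in sham, 95.4, 77.9, 90.5 and 81.4 CPM in FLASH and 79.4, 59.5 and 66.3 CPM in CONV, so that CONV 1 lay within the range of the others while CONV 2 and CONV 3 were lowest (log2 change -0.33 ± 0.12 SE, adjusted p = 0.143 by edgeR). H2afx, given above, had the largest mean difference in the other direction, 0.90 ± 0.65 on the log2 scale (SE), with overlapping groups.

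In nucleotide excision repair, Ddb2, whose protein recognises ultraviolet lesions, was lower and Ercc1, a subunit of an incision nuclease, higher in CONV, neither past the adjusted threshold. Ddb2 had 30.00, 24.2 and 25.8 CPM in sham, 33.8, 27.4, 14.9 and 14.5 CPM in FLASH and 15.5, 12.2 and 12.7 CPM in CONV. FLASH 3 and FLASH 4 lay within the CONV range while the other 5 lay between 24.2 and 33.8 CPM, and the log2 change was -0.85 ± 0.28 (SE) with an adjusted p of 0.120 by edgeR. Without FLASH 4 it was -0.95 with an adjusted p of 0.0473 by edgeR. Ercc1 had 11.04, 14.2 and 17.8 CPM in sham, 13.4, 15.03, 16.9 and 18.4 CPM in FLASH and 17.9, 21.6 and 24.1 CPM in CONV, with CONV 1 below FLASH 4 (log2 change 0.47 ± 0.17 SE, adjusted p = 0.149 by edgeR).

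Of the 13 recombination genes, 4 were higher and 9 lower in CONV, and all but Rad51b missed the adjusted threshold. Wrn, a helicase mutated in Werner syndrome, had a log2 change of -0.49 ± 0.20 (SE), and Rad51d one of -0.41 ± 0.17 (SE), with adjusted p of 0.177 and 0.186 by edgeR. For Wrn, FLASH 3 and FLASH 4 at 39.6 and 40.8 CPM lay within the CONV range of 35.7 to 42.2 CPM. In end joining, 2 of 6 genes were higher and 4 lower. Prkdc, the catalytic subunit of DNA-dependent protein kinase, had 71.00, 73.3 and 79.1 CPM in sham, 79.3, 77.4, 79.4 and 63.7 CPM in FLASH and 67.97, 63.98 and 55.3 CPM in CONV. FLASH 4 lay within the CONV range, and the log2 change was -0.26 ± 0.11 (SE, adjusted p = 0.188 by edgeR).

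In base excision and single-strand break repair, 3 of 7 genes were higher and 4 lower, with the smallest adjusted p at 0.189 (edgeR). That gene was Lig3, with a log2 change of -0.29 ± 0.12 (SE). Parp2 had 24.1, 27.97 and 28.2 CPM in sham, 29.3, 26.1, 25.1 and 27.5 CPM in FLASH and 22.2, 22.8 and 23.9 CPM in CONV, the CONV values being just below the rest (log2 change -0.23 ± 0.11 SE, adjusted p = 0.230 by edgeR). The Fanconi anaemia genes Fancd2 and Fanca differed by less than their spread, with log2 changes of -0.03 and 0.24.

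The wider pathway was read from 114 other repair genes tested in skin. In CONV against the other 7, 52 were higher and 62 lower, none was called by edgeR (smallest adjusted p = 0.0543), and at an unadjusted p under 0.05, 2 were higher (1.75%, background 14.1%) and 16 lower (14.0%, background 9.35%). Of all genes 50.4% were higher. The mismatch repair genes, which correct replication errors, were lower in 7 of 8 with a median log2 change of -0.29, none called. Of 21 p53 target genes tested, 14 were higher and 7 lower, and none was called. Of 22 proliferation genes, 21 were higher, with a median log2 change of 0.36, and none was called. Their summed CPM of 846.3 to 1175 in CONV lay inside the range of 420.8 to 1465 in the other 7. The lowest of those 7 were sham 1, FLASH 1 and FLASH 2.

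**Figure D3:**
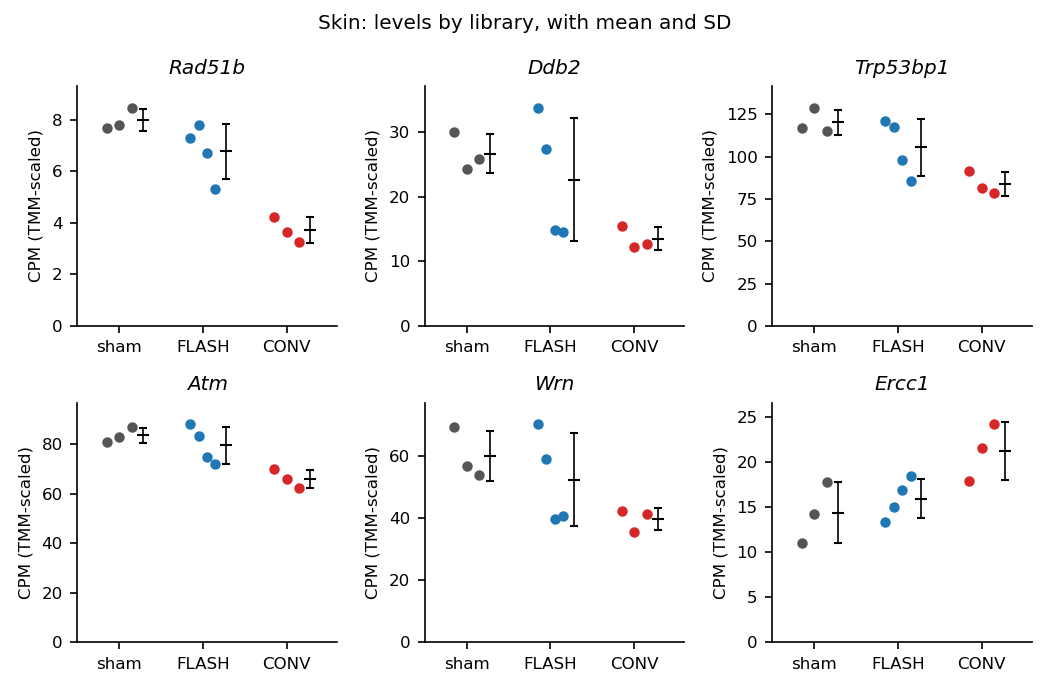
TMM-scaled CPM of 6 members in each skin library by group, with the group mean and SD (black). Rad51b and Atm in CONV lie below all other libraries, while 2 FLASH libraries reach the CONV range for Ddb2 and Wrn.

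**Figure D4:**
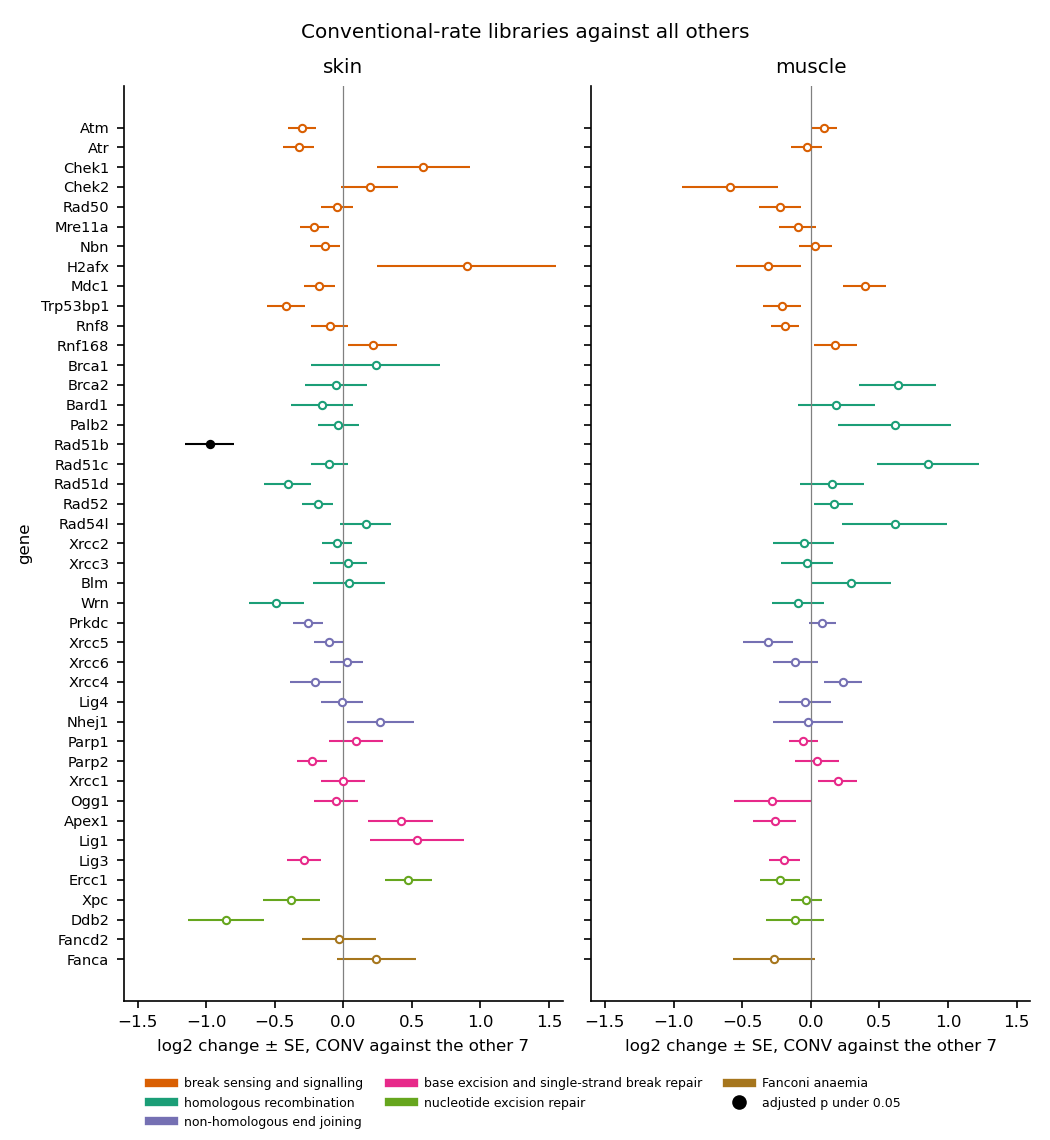
Log2 change ± SE of each member tested in CONV against the other 7 libraries, in skin (left, 43 genes) and muscle (right, 38 genes), coloured by role, with black marking an adjusted p under 0.05. Rad51b in skin is the one black point.

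Comparing CONV skin with sham skin alone, no member was called by edgeR (background 0.00%), and 1 was higher and 7 lower at an unadjusted p under 0.05 (background 12.0% and 8.13%). Rad51b was at 3.71 ± 0.497 CPM in CONV and 7.97 ± 0.426 CPM in sham (SD, n = 3 each), a log2 difference of -1.10 ± 0.20 (SE) with an adjusted p of 0.127 by edgeR. DESeq2 called Rad51b and Trp53bp1 here (4.65% of members, against 7.18% of all genes), and edgeR called Rad51b without CONV 1 (adjusted p = 0.0425), where it called 1.99% of all genes. Trp53bp1 differed by -0.52 ± 0.16 and Ddb2 by -0.98 ± 0.33 (log2 ± SE), with adjusted p of 0.146 and 0.165 by edgeR.

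FLASH skin was compared with sham skin to ask what the same dose left when given at ultra-high rate. No member was called by edgeR (background 0.00%) or DESeq2, and none had an unadjusted p under 0.05 (background 0.659%). The log2 differences ran from -0.27 (Xpc, a damage recogniser in nucleotide excision repair) to 0.34 (H2afx), and 41 of 43 were under 0.25 in size, with a median SE of 0.19. Rad51b was at 6.78 ± 1.07 CPM in FLASH (SD, n = 4), a log2 difference from sham of -0.23 ± 0.19 (SE).

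Between the dose rates in skin, no member was called by edgeR (background 0.00%), and 5 were higher in FLASH at an unadjusted p under 0.05 (background 4.12%) and none lower (background 8.56%). These 5 were Rad51b, Atr, Ddb2, Atm and Trp53bp1. Rad51b was 0.87 ± 0.19 higher in FLASH on the log2 scale (SE, adjusted p = 0.249 by edgeR), and DESeq2 called it (adjusted p = 0.00401) as the one member (2.33%, against 2.20% of all genes). Atr was 0.34 ± 0.14 higher (SE, adjusted p = 0.367 by edgeR), and its FLASH values of 77.9 to 95.4 CPM overlapped CONV 1 at 79.4 CPM. This comparison and those with sham share libraries, so they are not independent.

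In muscle, 38 members were tested and none was called in CONV against the other 7 libraries by edgeR (background 0.0612%) or DESeq2. At an unadjusted p under 0.05, 3 were higher (7.89%, background 5.83%) and none lower (background 6.06%). These were Mdc1, a scaffold that binds the marked histone at breaks, and the recombination genes Rad51c and Brca2. The median log2 change of the 38 was -0.03, with 16 higher (42.1%, background 51.3%) and 22 lower. CONV lay above all other libraries for 1 member, Rad51c (2.63%, background 1.98%). Rad51c met the description limit and the count filter of the tests through the CONV libraries alone. It had 11 to 14 estimated counts there and 2 to 10 in the others. Its place among the described and tested genes, and in these counts, therefore rests on that difference, and its test is no support for it. CONV lay below all others for 1, Rnf8, a ubiquitin ligase of the break response (2.63%, background 2.47%). Rnf8 shares 13.2% of its exon bases with Gm28043 on the same strand.

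Mdc1 in muscle had 4.49, 5.09 and 3.68 CPM in sham, 5.62, 4.36, 4.40 and 4.90 CPM in FLASH and 4.85, 6.28 and 7.20 CPM in CONV. CONV 2 and CONV 3 were the highest, while CONV 1 lay inside the range of the others (log2 change 0.39 ± 0.16 SE, adjusted p = 0.341 by edgeR). Rad51c had 0.382, 0.848 and 0.628 CPM in sham, 0.781, 0.174, 0.716 and 0.635 CPM in FLASH and 0.989, 1.13 and 1.14 CPM in CONV, with a log2 change of 0.85 ± 0.37 (SE, adjusted p = 0.387 by edgeR). Brca2, a breast cancer susceptibility gene of homologous recombination, had 1.43, 2.03 and 0.897 CPM in sham, 2.499, 1.83, 2.56 and 2.54 CPM in FLASH and 3.86, 2.09 and 3.27 CPM in CONV. CONV 1 and CONV 3 were highest and sham 3 lowest, with overlap between CONV 2 and FLASH (log2 change 0.63 ± 0.28 SE, adjusted p = 0.394 by edgeR).

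Against sham, no muscle member was called in CONV or FLASH by edgeR (backgrounds 0.00765% and 0.00%) or DESeq2. At an unadjusted p under 0.05, 3 were higher in CONV (background 4.79%) and none lower (background 5.24%), and 2 were higher in FLASH (background 1.62%) and none lower (background 0.879%). Brca2 was 1.06 ± 0.32 higher in CONV and 0.68 ± 0.31 higher in FLASH on the log2 scale (SE), with adjusted p of 0.340 and 0.999 by edgeR. Bard1 had 1.43, 1.02 and 1.26 CPM in sham, 1.87, 2.09, 2.35 and 2.27 CPM in FLASH and 2.43, 1.45 and 2.13 CPM in CONV. Every irradiated value lay above every sham value, by log2 differences of 0.79 ± 0.27 in FLASH and 0.69 ± 0.28 in CONV (SE), with adjusted p of 0.999 and 0.448 by edgeR. With files assigned by library name, these differences were -0.29 and 0.03, so that the FLASH difference of Bard1 reversed. The Brca2 differences were then 0.66 in CONV and 0.05 in FLASH. The share of all genes with every irradiated value above every sham value was not counted, so the order of Bard1 has no background.

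Prkdc in muscle had 10.99, 10.8 and 10.9 CPM in sham, 13.1, 12.3, 12.1 and 12.9 CPM in FLASH and 12.2, 13.4 and 12.02 CPM in CONV, again with every irradiated value above sham, by 0.21 on the log2 scale in both groups (adjusted p 0.545 in CONV and 0.999 in FLASH by edgeR). By library name these differences were 0.09 and 0.02. The share of all genes in this order was not counted here either. The other sensors showed no such order. Atm had 12.4, 13.4 and 11.6 CPM in sham, 11.4, 11.8, 11.6 and 12.5 CPM in FLASH and 13.6, 11.3 and 13.9 CPM in CONV, Atr had 8.60, 7.80 and 9.24 CPM in sham, 8.44, 9.50, 7.67 and 9.16 CPM in FLASH and 8.99, 7.32 and 9.08 CPM in CONV, and Trp53bp1 had 19.8, 13.9 and 12.2 CPM in sham, 17.96, 16.8, 16.3 and 13.8 CPM in FLASH and 15.01, 13.04 and 13.00 CPM in CONV. H2afx had 2.39, 1.70 and 1.52 CPM in sham, 2.03, 2.70, 2.05 and 2.00 CPM in FLASH and 2.07, 1.45 and 1.47 CPM in CONV. All 4 overlapped between the 3 groups.

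Between the dose rates in muscle, no member was called by edgeR (background 0.00765%) or DESeq2, and none had an unadjusted p under 0.05 (background 8.30%). The smallest p belonged to Rad51c and Mdc1, which were lower in FLASH than in CONV by log2 differences of -0.90 ± 0.44 and -0.34 ± 0.18 (SE, adjusted p = 0.600 and 0.625 by edgeR). Rad51c entered this test through its CONV libraries alone, so its rank here is no support for a difference. Among 103 other repair genes tested in muscle, none was called in any of the 4 comparisons, with 4 higher (3.88%, background 5.83%) and 1 lower (0.971%, background 6.06%) in CONV against the rest at an unadjusted p under 0.05.

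Whether members responded to conventional-rate irradiation differently in the tissues was tested as the interaction of tissue and CONV. No member was called by edgeR (background 0.109%) or DESeq2, and at an unadjusted p under 0.05 the CONV response was more positive in skin for 2 members (background 9.70%) and more negative for 6 (background 6.72%). With library totals alone in place of TMM, 9 members were more positive in skin and 34 more negative, against 18 and 25. The median of all genes moved too, from 0.0164 with TMM to -0.208, and that of the members from -0.18 to -0.408. The share of all genes in each direction was not counted, so these member counts have no background. Ercc1 had the smallest p, with a difference of 0.72 ± 0.23 (log2 ± SE, adjusted p = 0.148 by edgeR), followed by Mdc1 (-0.54 ± 0.18) and Atm (-0.37 ± 0.13). For Rad51b the difference was -2.07 ± 0.77 (SE, adjusted p = 0.196 by edgeR), but its muscle side rested on 0 to 3 estimated counts per library.

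Skin and muscle were then compared over the 10 libraries of each. With TMM scaling, 36 of 43 members (83.7%, background 77.0%) differed between skin and muscle, 25 higher in skin (58.1%, background 46.9%) and 11 lower (25.6%, background 30.0%). Of 13 recombination genes, 11 were higher in skin and none lower, and both Fanconi anaemia genes were higher. Of 6 end-joining genes, 5 were lower in skin (Xrcc4, Xrcc5, Xrcc6, Lig4 and Nhej1) and Prkdc was higher, while with library totals alone all 6 were higher in skin. Of 12 sensors, 9 were higher and 1, Nbn, lower, which also turned with library totals alone. Among the members counted as higher in skin, Brca1, Chek1, Fancd2 and Rad51b did not reach 0.5 CPM in 3 muscle libraries. They entered the test through the skin libraries alone, where they are high. Their place in these counts rests on that difference, and the test is no support for it. The median log2 difference of members was 0.57, beside 0.40 over all 19199 genes tested.

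The largest differences toward skin were those of Brca1 (4.12 ± 0.49, log2 ± SE), Rad51b (3.39 ± 0.35) and Lig1 (2.72 ± 0.27), with adjusted p of 5.93e-07, 1.02e-07 and 4.73e-08 by edgeR. Per length, Brca1 had 2.48, 16.95 and 11.5 TPM in sham, 4.62, 8.09, 18.7 and 17.5 TPM in FLASH and 14.1, 11.02 and 8.90 TPM in CONV of skin. In muscle it had 0.880, 0 and 0.145 TPM in sham, 0.0165, 0, 0 and 0.0709 TPM in FLASH and 0.246, 0.0567 and 0.0580 TPM in CONV, from 0 to 5 estimated counts per library. Rad51b had 3.76 to 16.4 TPM in skin and 0 to 0.713 TPM in muscle, and Lig1 9.35 to 26.5 TPM and 0.162 to 1.19 TPM. No values of these 3 genes overlapped between the tissues, and the fold changes of Brca1 and Rad51b depend on how such low muscle counts are modelled. Brca1 and Rad51b entered this test through the skin libraries alone, where they are high, so their adjusted p is no support for the difference. Lig1 missed the description limit in muscle, with 4 to 20 estimated counts per library there.

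The largest differences toward muscle were those of Parp1 (-1.76 ± 0.11), Nhej1 (-1.36 ± 0.18) and Xrcc5 (-1.23 ± 0.11, log2 ± SE), with adjusted p of 1.81e-10, 2.34e-06 and 1.35e-08 by edgeR. These directions held with TMM or DESeq2 size factors and turned without them. With library totals alone, the median of all genes moved from 0.40 to 2.72, all 43 members were higher in skin and none lower, and Parp1, Nhej1 and Xrcc5 differed by 0.57, 0.98 and 1.11. The 3 genes lay below the median of all genes under both scalings.

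Per length without such scaling, the mean TPM of every member was higher in skin, with no overlap between tissues for any of the 43. How many of all genes did so was not counted. With library totals alone the median log2 difference of all genes was already 2.72 toward skin, so this is not particular to the members. The ratio of skin to muscle ran from 2.59 for Parp1 (36.0 ± 4.95 against 13.9 ± 2.65 TPM, SD, n = 10 each) to 77.3 for Brca1. Nhej1 had 2.30 to 5.02 TPM in skin and 0.787 to 2.02 TPM in muscle, and Xrcc5 had 17.7 to 24.1 TPM and 4.88 to 10.1 TPM. The 6 end-joining genes had ratios from 2.66 for Nhej1 to 8.43 for Prkdc, and the 13 recombination genes from 6.98 for Rad52 to 77.3 for Brca1, so the ranges overlapped narrowly. Markers differed too, with proliferation genes at 420.8 to 1465 summed CPM in skin and 18.6 to 27.0 CPM in muscle. Their part in these differences was not tested.

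**Figure D5:**
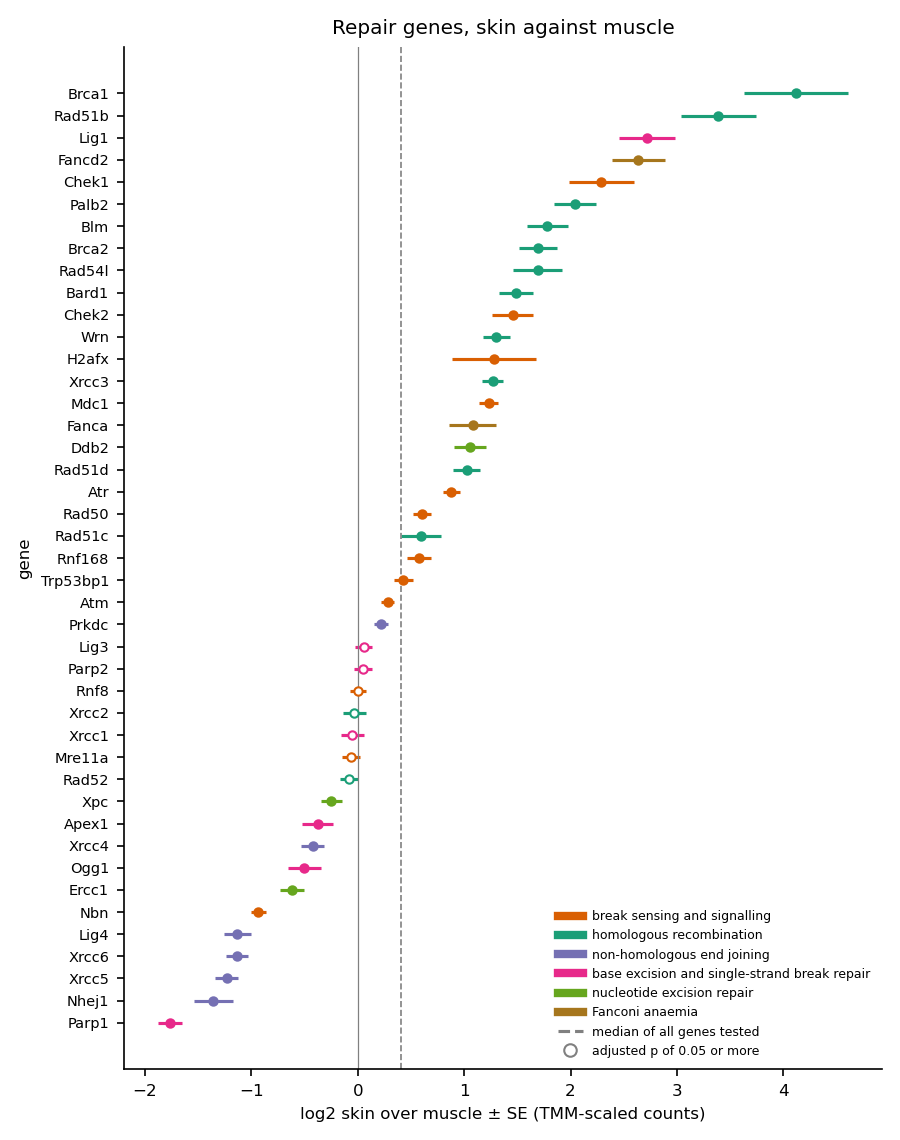
Log2 difference ± SE of each of the 43 members between skin and muscle with TMM scaling, ordered by size and coloured by role, with filled points past an adjusted p of 0.05 and a dashed line at the median of all genes (0.40). Recombination genes gather at the right, from Brca1 at 4.12. Brca1, Chek1, Fancd2 and Rad51b entered the test through the skin libraries alone. At the left lie 5 of the 6 end-joining genes, beside Parp1, which is lowest at -1.76. With library totals alone all 43 lie above 0, where the median of all genes is 2.72.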

How the data were processed

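RNA was sequenced from 10 skin and 10 muscle libraries. The deposited files gave an estimated count and a TPM per transcript, from kallisto. The submitters' processing notes list kallisto 0.5.0 and mm10. The sources used here do not name the annotation release. As deposited, estimated counts are not normalized, and TPM is scaled by the authors for transcript length and to a common total per library, per the file headers.

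Transcripts were assigned by identifier without version to GENCODE M21 genes (98.45% matched; unmatched ones held 0.873% to 1.85% of counts and were left out), summed to 35579 genes and rounded. Of 43 members, 20 share exon bases with another gene. kallisto splits reads between transcripts that share sequence. The library totals were 24396463 to 33250762 in skin and 10198699 to 12336479 in muscle, and 3 counts correspond to 0.0913 to 0.125 CPM in skin and 0.247 to 0.299 CPM in muscle. No pair of libraries in a group agreed within sampling noise (chi-square of 7.78 to 402 per degree of freedom).

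Groups followed the record of each file. Tests were made with edgeR 4.0.16 in R 4.3.3 by its quasi-likelihood method, with TMM, filterByExpr, robust dispersions and Benjamini-Hochberg adjustment over all genes tested, at a threshold of 0.05. The fits of CONV against the rest had 2 groups and the other comparisons within a tissue all 3. The fits across tissues used all 20 libraries, treated as independent, with 19199 genes tested. The biological coefficient of variation was 0.414 in the skin fit with 2 groups and 0.168 in the muscle one. An SE is the log2 change divided by the square root of F. CPM values are TMM-scaled within a tissue, except for the description limit. Only the skin fit of CONV against the rest was run on simulated counts. Those counts had a smaller spread than these libraries, so accuracy at the spread of these data was not tested.

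The alternatives were DESeq2 1.42.0, DESeq2 size factors, no filter, each library left out, the replicate number as a block, files assigned by library name, disagreeing libraries left out, only the groups compared and a hair score as covariate. Protein-coding transcripts alone and leaving out the 2 skin libraries rich in muscle genes were added after seeing the data, as was the injury-induced keratinocyte list. The members and lists were chosen with earlier results of these data known. Genes given by library were those called within a tissue, the 3 and 2 smallest p in CONV against the rest and FLASH against CONV, 5 sensors, the highest and lowest TPM, and the 3 largest tissue differences each way. Others were named as members of a count or after their values were seen. RefSeq promoter windows matched 33 members. The 10 without a window are Rad50, Nbn, H2afx, Rad51d, Xrcc2, Wrn, Prkdc, Xpc, Ddb2 and Fancd2.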

Additional observations from a re-analysis of the deposited data

Results flagged for a closer look

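In the FLASH groups of 4 libraries, each member was checked for a library far from the other 3, by a Dixon ratio above 0.829. Of 80 groups, 4 had one, and chance flags about 1 in 20 such groups. In skin, Rnf168, a ubiquitin ligase at breaks, was high in FLASH 1 at 45.3 CPM beside 40.2 to 40.6 CPM, and Prkdc was low in FLASH 4 at 63.7 CPM beside 77.4 to 79.4 CPM. In muscle, FLASH 2 was high in H2afx at 2.70 CPM beside 2.00 to 2.05 CPM and low in Brca2 at 1.83 CPM beside 2.499 to 2.56 CPM. The file of skin FLASH 1 carried the library name of sham 3, and that of muscle FLASH 2 the name of sham 2.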

How the results depend on the processing

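In skin, the number of members called in CONV against the other 7 was 1. It was 4 with DESeq2 (9.30%, against 9.25% of all genes), 0 without the libraries of disagreeing file name, 0 with the hair score as covariate and 0 without the 2 libraries rich in muscle genes, a setting chosen after seeing the data. In these last 3 settings 0 of all genes were called. Leaving out 1 library gave 0 to 3, with 3 (Rad51b, Ddb2 and Trp53bp1; 6.98%, against 7.31% of all genes) without FLASH 4. In CONV against sham, where 0 were called, DESeq2 called 2 (4.65%, against 7.18% of all genes) and leaving out 1 library gave 0 to 1. In FLASH against CONV DESeq2 called 1 (2.33%, against 2.20%). The cause was not tested. Ercc1, Ddb2, Trp53bp1 and Atm in CONV against the rest each passed in 1 to 3 of 18 alternatives.

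With the replicate number as a block, 4 members were called in CONV against the rest of skin (Trp53bp1, Rad51b and Ddb2 lower, Ercc1 higher, 9.30% against 6.45% of all genes), and in no other comparison did the block move the count of members called by over 1.5 times. Deviations of same-numbered libraries correlated at -0.711 to 0.517 in skin and -0.235 to 0.213 in muscle over 9 pairs each, so the numbers are not treated as pairing the samples.

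Between tissues, library totals in place of TMM reversed Parp1 (0.566), Nhej1 (0.975), Xrcc5 (1.11), Xrcc6 (1.20), Lig4 (1.20), Xrcc4 (1.90) and Nbn (1.40). By library name, Bard1 in muscle FLASH against sham reversed (-0.286). Over all alternatives for the counts of members called or described, 191 stayed within 1.5 times the main count and 17 did not. With muscle libraries of 10198699 to 12336479 counts, 5 of the 43 members had too few counts there to be tested between groups.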
